A study of Mus musculus with 2 samples.

Results

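The TGF-β system was examined through 10 genes, the 3 ligands Tgfb1, Tgfb2 and Tgfb3, the 3 receptors Tgfbr1, Tgfbr2 and Tgfbr3, and the 4 latent TGF-β binding proteins Ltbp1, Ltbp2, Ltbp3 and Ltbp4. They were taken by symbol, by their place in the pathway, from the 20211 gene symbols of the expression tables, and each of them stood on a single row. The choice was made with earlier results of these data known. Levels are in RPKM, reads scaled by transcript length and by the mapped reads of the library. The filter on low values, 1 RPKM or more averaged over both libraries, was passed by 10068 symbols and by 9 of the 10 genes, all but Tgfbr1, and "all genes" stands for these 10068. RNA came from cultured primary perivascular cells (PVCs) of the aorta of C57BL/6 mice, with 1 wild-type (WT) library and 1 library of the Kai1 KO genotype. KAI1, a tetraspanin of the cell surface, is the product of the gene Cd82, and the study asked what it does in perivascular cells that touches vessel growth. Both genotypes share strain, tissue and culture, and the labels name no treatment. Per the labels both cultures were grown in DMEM with 10% FBS, while the study's culture methods give another serum level. The sources used here do not say how many animals or cultures each library holds. With 1 library per genotype there is no replicate check, and no p-value was computed. The intervals given cover counting error only, with reads estimated from the steps between low RPKM values.

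TGF-β is made as a precursor whose propeptide stays wrapped around the growth factor and keeps it inactive. In the secretory pathway this latent complex is bound by an LTBP, which ties it to fibrillin and fibronectin in the matrix. Once released, the ligand binds the type II receptor TGFBR2, which recruits and phosphorylates the type I receptor TGFBR1, and this in turn phosphorylates SMAD2 and SMAD3. In the vessel wall the pathway is known for the contractile differentiation of mural cells and for matrix production.

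The 3 ligands differ in how they can be released. The propeptides of TGF-β1 and TGF-β3 carry the tripeptide arginine-glycine-aspartate (RGD), which αv integrins bind. In the longest coding transcript of the GENCODE M1 annotation, this motif occurred 1 time in Tgfb1, from residue 244, and 1 time in Tgfb3, from residue 261. It occurred 0 times in Tgfb2, where the codons aligned to the motif of Tgfb3 begin at residue 261 and encode serine-glycine-aspartate. The stretch is shown because the ligands without and with RGD held different shares of the ligand RNA in the WT and Kai1 KO libraries. All 3 lie in exon 5, on build NCBI37 (mm9), at chr7:26482152-26482178 on the plus strand for Tgfb1, chr1:188454623-188454649 on the minus strand for Tgfb2 and chr12:87403106-87403132 on the minus strand for Tgfb3. They are written in the direction of the coding strand, and the capitals mark the RGD codons or, in Tgfb2, the codons aligned to them.
Tgfb1: cccaaacgtCGGGGCGACctgggcacc
Tgfb2: acatatgccAGTGGTGATcagaaaact
Tgfb3: gaccatggcCGTGGAGACctggggcgt
The growth factor domains themselves are more alike. Over the 112 residues that follow the furin cleavage site, Tgfb1 and Tgfb2 shared 72.3%, Tgfb1 and Tgfb3 77.7%, and Tgfb2 and Tgfb3 78.6%. Over the whole precursors the shared part was between 50.3% and 57.4% of aligned residues.

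The targeted gene Cd82 was measured at 12.8 RPKM in WT and 2.62 in Kai1 KO. The estimated depth was 29540000 reads for WT and 26820000 for Kai1 KO, and the RPKM values summed to 884463 and 1238190. The Y-linked gene Ddx3y was at 6.56 in WT and listed at 0 in Kai1 KO, so that a difference in the sex of the cells cannot be told apart from the genotype. Of 13 perivascular and smooth muscle markers, 4 had an RPKM under 1 in both libraries, among them the pericyte genes Rgs5, Kcnj8 and Abcc9. Pdgfrb, the PDGF-BB receptor of mural cells, was at 44.7 and 31.6, and the smooth muscle myosin gene Myh11 at 2.96 and 0.346. The summed RPKM of this list was 4646 in WT and 2978 in Kai1 KO, and that of 9 fibroblast and adventitial markers 2621 and 1501. Of the 8 fibroblast and adventitial markers kept by the filter, 6 were lower in Kai1 KO and 2 higher. The higher ones were Cd34, at 1.44 in WT and 7.76 in Kai1 KO, and Thy1, at 324 and 380. Of 9 endothelial markers, 8 were under 1 in both libraries and 8 were listed at 0 in Kai1 KO, and their sum was 2.22 and 1.01. The sum of 9 leukocyte and macrophage markers was 19.0 and 14.7, with Ptprc at 0.0407 and 0.00697. Its members lay on both sides of their WT level, with Csf1r at 11.7 and 2.66, Lyz2 at 3.44 and 1.09, and Cd14 at 1.98 and 10.3. The sum of 7 epithelial markers was 30.0 and 92.3, nearly all of it from Krt19 at 29.3 and 91.3. Many of these marker levels differed between the WT and the Kai1 KO library, and the part of the markers in the results below was not tested.

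In the Kai1 KO library all 3 ligands and the co-receptor Tgfbr3 were lower than in WT, Ltbp2 was lower, and Ltbp4 was nearly 5-fold higher. Past the 2-fold limit on the low side lay 3 of the 9 members that passed the filter (Tgfb2, Ltbp2 and Tgfbr3), beside 7.81% of all genes. Past it on the high side lay Ltbp4 alone, 1 of 9, beside 7.98% of all genes. The median log2 ratio of Kai1 KO to WT, taken on RPKM + 0.1, was -0.63 over the 9 members and 0.08 over all genes. Fewer cells of a type and less RNA per cell cannot be told apart in such bulk RNA. The balance depended on the scaling of the libraries. With both libraries scaled to the same RPKM sum, 18.0% of all genes lay past 2-fold on the low side and 2.84% on the high side (1816 and 286 genes, against 786 and 803 as deposited), as did 5 members and 1 member.

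**Figure D1:**
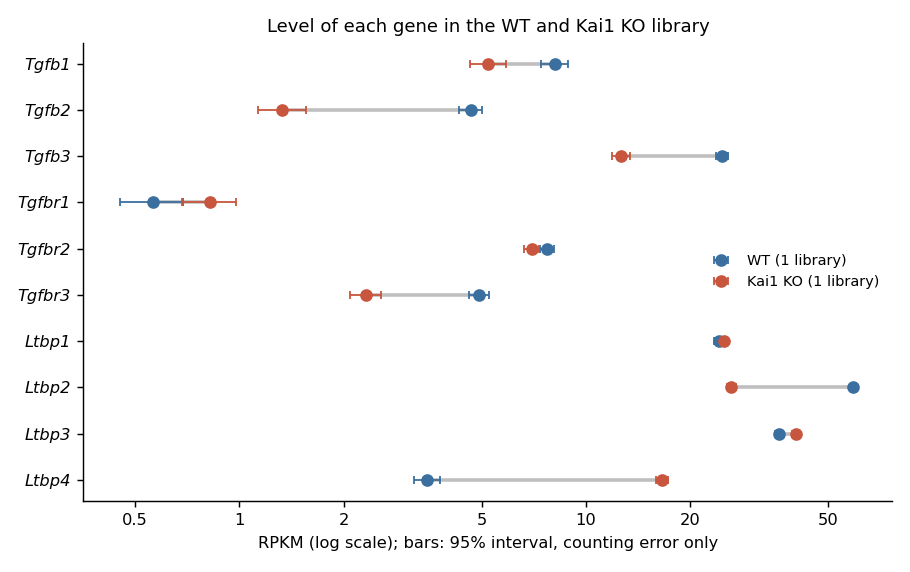
RPKM of the 10 genes (log axis) for WT (blue) and Kai1 KO (red), with 95% intervals that cover counting error only. Ltbp4 moved up from 3.48 to 16.6, and Tgfb2, Tgfb3, Tgfbr3 and Ltbp2 lay between 28.6% and 51.2% of WT.

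Tgfb3 was the most abundant ligand RNA, per unit of length, in both libraries. Its RPKM was 24.7 in WT and 12.6 in Kai1 KO, or 51.2% of WT. The log2 ratio was -0.96 (95% interval -1.07 to -0.86), just short of a 2-fold change, and 8.24% of all genes had a lower ratio. TGF-β3 is best known for its part in palate fusion and in scar formation. Its gene lies on chromosome 12 from 87397694 to 87419991 with 7 exons.

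Tgfb1 encodes the ligand that is most studied in fibrosis and immune control, and sits at 26472021 to 26490096 of chromosome 7. It was measured at 8.13 RPKM in WT and 5.22 in Kai1 KO, or 64.2% of WT. The log2 ratio of -0.63 (-0.86 to -0.42) was the smallest of the 3 ligands in size, and 14.9% of all genes had a lower one. The counting intervals of the 2 levels, 7.42 to 8.90 and 4.62 to 5.87, did not overlap.

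Tgfb2, on chromosome 1 from 188447065 to 188529871, encodes the ligand needed in heart and outflow tract development. From an estimated 620 reads in WT and 161 in Kai1 KO, its RPKM was 4.65 (4.29 to 5.03) and 1.33 (1.13 to 1.55). Tgfb2 thus stood at 28.6% of WT, the largest fold difference among the ligands. The log2 ratio was -1.73 (-2.06 to -1.55), and 3.08% of all genes were lower. It stayed past 2-fold under every alternative setting that could change it, from -2.19 to -1.28. The 250 bases before the start of Tgfb2 in RefSeq, chr1:186705990-186706239 on the minus strand of build GRCm38.p6, are shown because this ligand differed most. The capitals mark, from 5′ to 3′, a SMAD box (CAGACA), an E-box (CACGTG) and a TATA box (TATAAA), which begin 204, 51 and 31 bases before the start.
Tgfb2 promoter: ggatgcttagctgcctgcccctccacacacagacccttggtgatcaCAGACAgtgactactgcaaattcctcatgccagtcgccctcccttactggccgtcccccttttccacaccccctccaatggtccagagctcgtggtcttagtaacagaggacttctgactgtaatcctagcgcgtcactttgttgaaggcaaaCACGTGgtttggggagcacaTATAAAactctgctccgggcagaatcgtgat
Each motif was searched on both strands, and none of the 3 overlaps another. Of all 32851 RefSeq promoters of that length, 12.4% hold a TATA box, 6.02% this E-box and 17.1% this SMAD box. RefSeq promoters were found for 8 members, 12 in all, and of these Tgfb2 had the only TATA box and the only E-box. The cyclic AMP response element TGACGTCA, present in 1.55% of all promoters, was found in Ltbp1, and the AP-1 motif TGANTCA, present in 6.75%, in 0 of the 12. These matches are letters only and were not tied to the expression values.

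The summed ligand RPKM was 37.5 in WT and 19.2 in Kai1 KO, or 51.2% of WT. Within a library the make-up of this sum is not changed by any scaling between libraries. Tgfb3 made up 65.9% of it in both. Tgfb1 went from 21.7% in WT to 27.2% in Kai1 KO, and Tgfb2 from 12.4% to 6.94%. The ligands that carry RGD, Tgfb1 and Tgfb3, together made up 87.6% and 93.1%. The ratio of Tgfb1 to Tgfb2 was 1.75 in WT and 3.92 in Kai1 KO, a log2 change of 1.16 with an interval from 0.83 to 1.49. For Tgfb3 over Tgfb2 the ratio was 5.31 and 9.50, a log2 change of 0.84 (0.57 to 1.11). Both intervals lie above 0, so that the lower share of Tgfb2 was larger than the counting error.

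**Figure D2:**
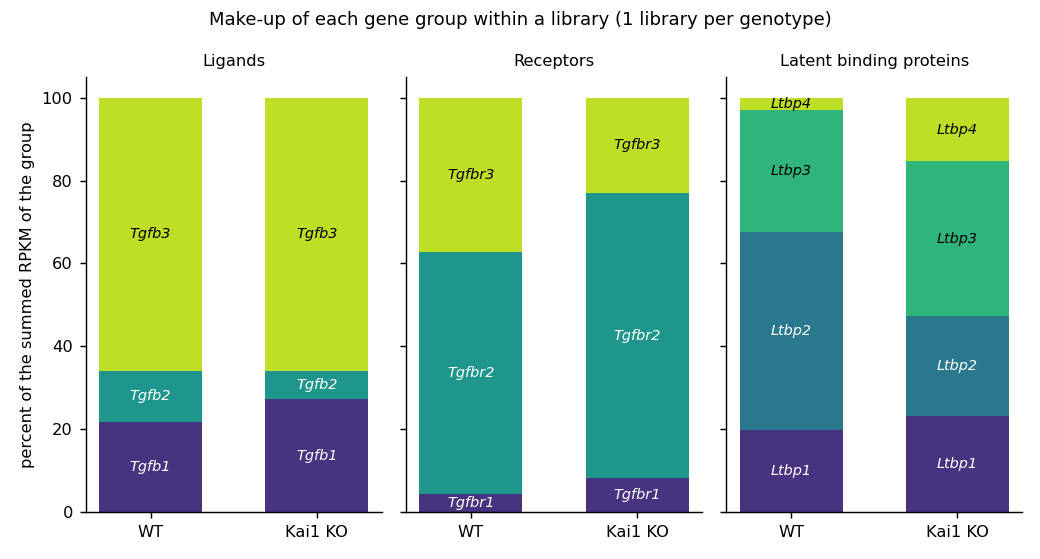
Percent of the summed RPKM of the ligands, the receptors and the latent binding proteins that each gene made up in the WT and the Kai1 KO library. Tgfb3 held 65.9% of the ligands in both, while Ltbp2 went from 48.0% to 24.2% of the latent binding proteins and Ltbp4 from 2.84% to 15.3%.

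Among the receptors Tgfbr2 differed little and Tgfbr1 was higher as deposited, the latter at a low level, and the co-receptor Tgfbr3 was lower. Tgfbr2, the type II receptor that binds the ligand first, sits at 115993415 to 116084383 of chromosome 9. It was measured at 7.72 RPKM in WT and 6.97 in Kai1 KO, or 90.3% of WT, and the log2 ratio was -0.15 (-0.25 to -0.05). As 35.8% of all genes had a lower ratio, it lay well inside their range. Tgfbr1, the type I receptor kinase on chromosome 4 from 47366094 to 47427803, was the lowest of the 10 genes in both libraries. Its RPKM was 0.562 (0.453 to 0.689) in WT and 0.821 (0.682 to 0.980) in Kai1 KO, from an estimated 92 and 122 reads. The 2 intervals overlap at their ends, while that of the log2 ratio of 0.48, from 0.15 to 0.95, lies above 0. Scaled to the same RPKM sum or to Gapdh, the ratio of Tgfbr1 was 0.05 and 0.04, and that of Tgfbr2 -0.62 and -0.64. The level of Tgfbr2 over that of Tgfbr1, which such scaling does not change, was 13.7 in WT and 8.49 in Kai1 KO. This was a log2 change of -0.69 (-1.10 to -0.29).

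Tgfbr3, on chromosome 5 from 107535589 to 107718648, encodes betaglycan, a co-receptor without kinase activity that presents ligand, above all TGF-β2, to TGFBR2. Its RPKM was 4.92 in WT and 2.32 in Kai1 KO, or 47.2% of WT. The log2 ratio was -1.05 (-1.26 to -0.91), just past 2-fold, and 7.25% of all genes had a lower one. With a pseudocount of 1 RPKM it was -0.83 and with the trend on transcript length removed -0.94, both short of 2-fold. Betaglycan and the ligand that depends on it most, Tgfb2, were thus lower in the same library, at 47.2% and 28.6% of WT. Of the summed receptor RPKM, Tgfbr3 made up 37.3% in WT and 22.9% in Kai1 KO, and Tgfbr2 58.5% and 68.9%. The ratio of Tgfbr2 to Tgfbr3 was 1.57 and 3.01, a log2 change of 0.94 (0.73 to 1.14).

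The latent binding proteins split most widely. Ltbp4, on chromosome 7 from 28090155 to 28122711, encodes a protein that takes part in elastic fibre assembly and can bind latent TGF-β1. Its RPKM was 3.48 (3.19 to 3.79) in WT and 16.6 (15.9 to 17.3) in Kai1 KO, from an estimated 533 and 2302 reads. This was 4.76-fold higher, a log2 ratio of 2.22 (2.11 to 2.39), and 0.695% of all genes had a higher ratio. In every alternative setting that could change it the ratio stayed past 2-fold, from 1.72 to 2.33. RefSeq places starts of Ltbp4 at an upstream and at a downstream site, and the tables give 1 value per symbol, so that starts and isoforms were not separated. The upstream promoter is shown because this gene was the 1 member past 2-fold on the high side. It lies at chr7:27337613-27337862 on the minus strand of GRCm38.p6, and the capitals mark 3 GC boxes (GGGCGG on either strand), which begin 204, 190 and 32 bases before the start.
Ltbp4 promoter: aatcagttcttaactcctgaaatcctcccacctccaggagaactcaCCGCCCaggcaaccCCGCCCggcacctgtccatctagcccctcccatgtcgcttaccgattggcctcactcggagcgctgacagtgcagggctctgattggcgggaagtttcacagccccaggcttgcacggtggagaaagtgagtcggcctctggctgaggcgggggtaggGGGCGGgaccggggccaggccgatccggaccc
A GC box stood in 32.7% of all promoters and in 6 of the 12 promoters of the members, those of Ltbp2, Ltbp4, Tgfb1 and Tgfbr1. Several of the 6 belong to Ltbp4. Its downstream ones, at 27333649 to 27333898 and 27333664 to 27333913 of chromosome 7, largely overlap, so that the 6 are not separate sequences.

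Ltbp2, on chromosome 12 from 86124162 to 86217482, encodes a microfibril protein that, unlike the other LTBPs, does not bind latent TGF-β. With an RPKM of 58.9 it was the highest of the 10 genes in WT. In Kai1 KO it was at 26.2, or 44.6% of WT. Counting error is small here, with an estimated 11419 and 4620 reads, and the log2 ratio was -1.16 (-1.22 to -1.12), with 6.21% of all genes lower. Its exons overlap those of D030025P21Rik on the opposite strand, and the strand setting of the counting is not given in the sources used here, so that reads of the 2 genes may be mixed.

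Ltbp1 and Ltbp3, the main carriers of latent TGF-β, were near their WT level. Ltbp1, on chromosome 17 from 75404908 to 75791852, was at 24.1 in WT and 25.0 in Kai1 KO, a log2 ratio of 0.05 (-0.01 to 0.11). Ltbp3, on chromosome 19 from 5740904 to 5758532, was at 36.1 and 40.5, a log2 ratio of 0.17 (0.11 to 0.22), and the limit given for the strand of Ltbp2 holds for it too. The sign of such small ratios followed the scaling, since with equal RPKM sums Ltbp1 was at -0.43 and Ltbp3 at -0.32. Within the summed LTBP RPKM, which was 122.6 in WT and 108.2 in Kai1 KO, Ltbp2 went from 48.0% to 24.2%, Ltbp4 from 2.84% to 15.3%, Ltbp3 from 29.4% to 37.4% and Ltbp1 from 19.7% to 23.1%. Ltbp2 exceeded Ltbp4 16.9-fold in WT and 1.58-fold in Kai1 KO. This log2 change of -3.42 (-3.56 to -3.27) was the widest of the 8 pairs of members compared.

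**Figure D3:**
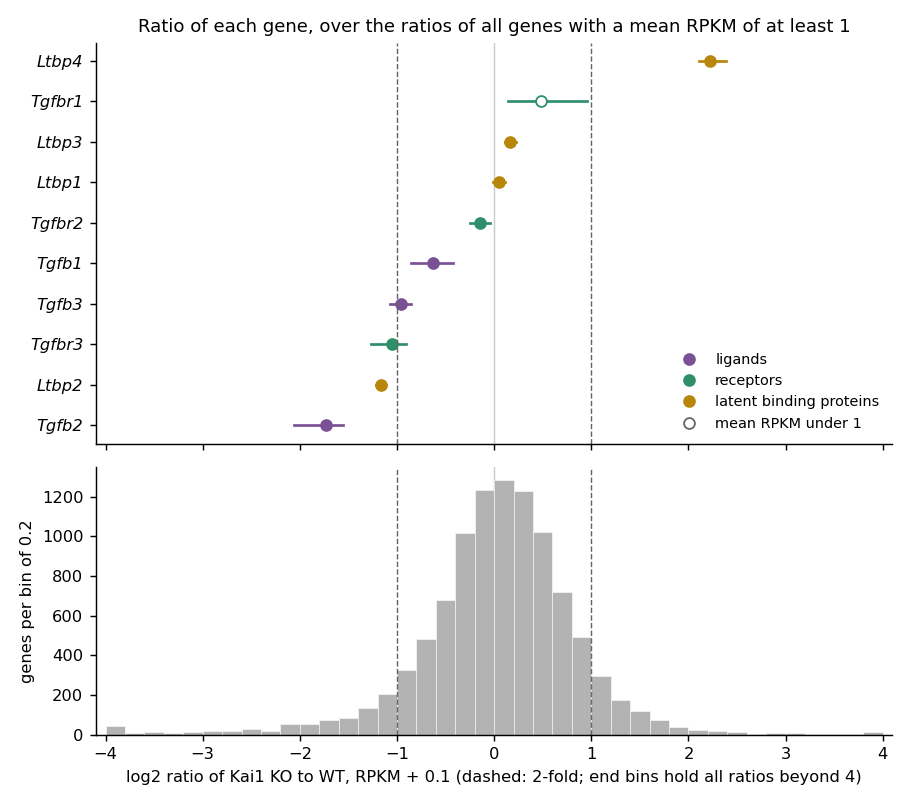
Upper panel, log2 ratio of Kai1 KO to WT of each gene with its 95% counting interval (ligands purple, receptors green, latent binding proteins ochre, open circle for Tgfbr1, which averaged under 1 RPKM). Lower panel, the ratios of all 10068 genes that passed the filter in bins of 0.2, whose median was 0.08. Tgfb2 and Ltbp4 lie farthest from the centre, at -1.73 and 2.22.

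By level, the order in WT was Ltbp2, Ltbp3, Tgfb3, Ltbp1, Tgfb1, Tgfbr2, Tgfbr3, Tgfb2, Ltbp4 and Tgfbr1. The counting intervals overlapped between Tgfb3 and Ltbp1, between Tgfb1 and Tgfbr2 and between Tgfbr3 and Tgfb2, so these neighbours did not differ beyond that error. In Kai1 KO the order was Ltbp3, Ltbp2, Ltbp1, Ltbp4, Tgfb3, Tgfbr2, Tgfb1, Tgfbr3, Tgfb2 and Tgfbr1, and only the intervals of Ltbp2 and Ltbp1 overlapped. Ltbp4 moved from place 9 to place 4. Its level was above that of 27.0% of all genes in WT and of 65.3% in Kai1 KO, while that of Tgfb2 was above 34.2% and 7.38%.

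The genes that hold or release latent TGF-β were mostly lower. Of 21 listed genes 15 were kept by the filter. Of these, 3 lay past 2-fold on the low side and 0 on the high side, beside 7.81% and 7.98% of all genes. All 15 ratios were below 0, with a median of -0.75, while 4522 of all 10068 genes were below 0. Scaled to the same RPKM sum or to Gapdh, 11 of the 15 lay past 2-fold on the low side, beside 18.0% and 18.4% of all genes. The matricellular protein thrombospondin 1 (Thbs1), which can activate latent TGF-β, was at 818 and 185 RPKM in WT and Kai1 KO, a log2 ratio of -2.14. Itgav, the αv integrin chain that binds RGD, was at 24.4 and 8.40 (-1.53). Of its partner chains, Itgb6 and Itgb8, of the integrins best known for releasing TGF-β, were at or near 0 in both libraries. Other integrin chains of the list were expressed, with Itgb1 at 273 in WT and 207 in Kai1 KO, Itgb5 at 133 and 67.2, and Itgb3 at 1.92 and 1.07. Lrrc32 encodes GARP, which carries latent TGF-β on the cell surface, and was at 104.9 and 44.3 (-1.24). Furin, the protease that cleaves the precursor, was at 12.8 and 8.82 (-0.53).

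Accessory receptors were measured by 7 genes, of which 6 were kept, with a median of -0.96. Past 2-fold lay 2 on the low side and 0 on the high side (33.3% and 0, beside the same 7.81% and 7.98%). The count on the low side was 1 with a pseudocount of 1 RPKM or a filter at 5 RPKM, beside 5.68% and 5.37% of all genes. It was 4 under each of the 4 other scalings, beside 9.06% to 18.4% of all genes. Acvrl1, the type I receptor ALK1 that is known from endothelium, was at 8.37 in WT and 1.64 in Kai1 KO (-2.28). Bambi, a decoy receptor without a kinase domain, was at 1.53 and 0.634 (-1.15). Endoglin (Eng), a co-receptor of the same structural family as betaglycan, was at 42.0 and 21.4 (-0.97). Acvrl1 and Eng are also endothelial genes. The endothelial markers Pecam1, Tek and Kdr were at 0.413, 0.409 and 0.122 in WT and listed at 0 in Kai1 KO. Cdh5 was at 0.0267 and 0. Flt1, the only endothelial marker kept by the filter, was at 1.23 in WT and 1.01 in Kai1 KO, and Emcn and Cldn5 were listed at 0 in both. The part of endothelial cells in the values of Acvrl1 and Eng was not tested.

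Of 19 SMADs and SMAD regulators 17 were kept, and the median was -0.20. Past 2-fold lay 1 on the low side and 0 on the high side, and the 5.88% on the low side is near the 7.81% of all genes. Scaled to the same RPKM sum or to Gapdh, 4 and 5 of the 17 lay there, beside 18.0% and 18.4% of all genes. The signal transducers Smad2 and Smad3 were at 3.09 and 8.10 in WT and at 2.68 and 7.18 in Kai1 KO, log2 ratios of -0.20 and -0.17. Smad4, the partner they share, was at 8.48 and 5.90 (-0.52). The gene past 2-fold was the inhibitory SMAD and pathway target Smad7, at 10.1 and 2.99 (-1.73), the same ratio as that of Tgfb2.

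The list for the activin branch holds activin and GDF ligands, inhibin subunits, receptors and antagonists. Activins signal through the same SMADs, but not every listed gene encodes such a ligand. Of 13 genes 10 were kept, and the median was -0.77. Past 2-fold lay 4 on the low side and 0 on the high side (40.0% and 0, beside 7.81% and 7.98%). With a pseudocount of 1 RPKM or a filter at 5 RPKM, 2 lay on the low side, beside 5.68% and 5.37% of all genes. The inhibin subunits Inha and Inhbb were at 3.35 and 2.50 in WT and at 0.860 and 0.932 in Kai1 KO, ratios of -1.84 and -1.33. The stress-induced ligand Gdf15 was at 33.5 and 10.6 (-1.65), and the activin antagonist Fstl3 at 9.10 and 4.38 (-1.04).

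Of 38 genes widely described as raised by TGF-β in mesenchymal cells, 37 were kept. This list, like the others, was chosen with earlier results of these data known. Past 2-fold lay 13 on the low side and 2 on the high side, or 35.1% and 5.41% beside 7.81% and 7.98% of all genes. Their median log2 ratio was -0.77. After that of Thbs1, the lowest ratios were those of the collagen-binding integrin chain Itga11, at 8.57 and 2.12 (-1.96), and of the lysyl oxidase Loxl2, at 70.2 and 20.03 (-1.81), followed by Smad7. The higher genes were Angptl4, an inhibitor of lipoprotein lipase, at 25.0 and 68.9 (1.46), and the proteoglycan versican (Vcan), at 7.15 and 19.5 (1.44). On the lists above stood 7 of the 38 target genes and on a marker list 4. Of the 26 kept genes on no other list, 9 lay past 2-fold on the low side and 2 on the high side. These were 34.6% and 7.69%, beside 7.81% and 7.98% of all genes, and the median of the 26 was -0.79. With equal RPKM sums the median of all genes moved from 0.08 to -0.39. Of the 78 pathway genes kept, 44 then lay past 2-fold on the low side and 0 on the high side. Of all genes 18.0% and 2.84% did so under that scaling. As deposited the counts of pathway genes were 21 and 2.

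**Figure D4:**
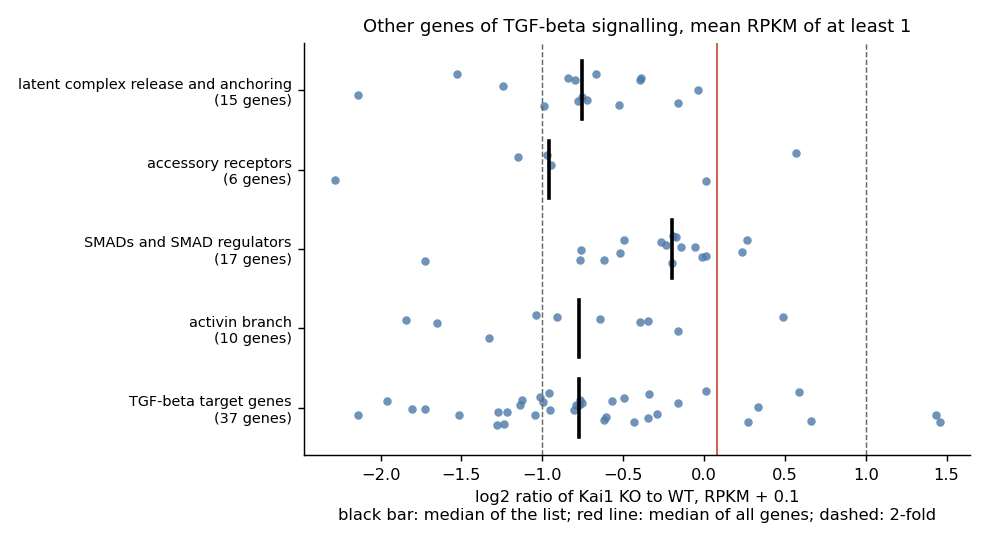
Each point is a gene of the 5 pathway lists that passed the filter, at its log2 ratio of Kai1 KO to WT (1 library each), and the vertical scatter within a list has no meaning. The list medians, black bars from -0.96 for accessory receptors to -0.20 for SMADs and their regulators, all lie below the median of all genes at 0.08 (red line).

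How far the values hang on the processing is shown for each member. Tgfb2 and Ltbp2 were more than 2-fold lower in 8 of 8 alternatives, Tgfbr3 in 6, Tgfb3 in 4 and Tgfb1 in 2, and Ltbp4 was more than 2-fold higher in 8. Among these alternatives, the choice of the highest row of a symbol could not change any member, since each stood on a single row.

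**Figure D5:**
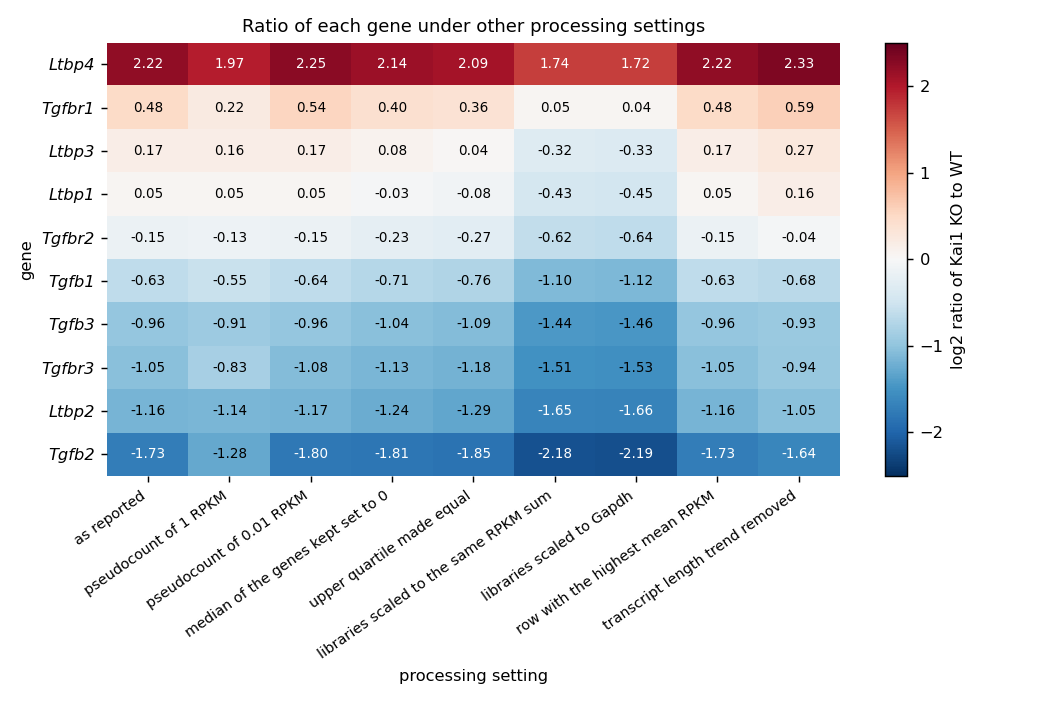
Log2 ratio of Kai1 KO to WT for the 10 genes (rows) under the reported setting and 8 others (columns), blue for lower and red for higher in Kai1 KO. The ligands are lower in each column and Ltbp4 higher, while Ltbp1 and Ltbp3 change sign with the scaling.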

How the data were processed

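RNA-seq of cultured aortic PVCs was deposited for 1 WT and 1 Kai1 KO library. Alignment was to mm9 (NCBI37) with TopHat 2.0.9 and Bowtie, and the authors deposited RPKM values for RefSeq genes, 1 value per row and library. Cufflinks is named in the submitters' processing notes, and neither the depth nor the strand setting is given in the sources used here.

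Each table has 20462 rows. The 38 that name no gene were dropped, and 153 symbols on several rows were averaged. The log2 ratio was taken on RPKM + 0.1, and a gene was kept where its 2 values averaged 1 RPKM or more. With 1 library per genotype only the fold part (2-fold) of the study's rule was used. The pseudocount understates the ratio of low genes.

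Reads were estimated from low RPKM values of genes with a single GENCODE M1 transcript of over 800 bases, which fell within 0.15 of a whole read in 79.5% (WT) and 79.05% (Kai1 KO) of cases at fitted fragment lengths of 200 and 210 bases. Reads per gene assume the longest transcript. Intervals (95%, exact Poisson for levels, exact binomial for ratios, on values without pseudocount, and a normal approximation for pairs of genes) cover counting error only. The scripts were tested on simulated data.

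All members were named. Of each pathway list, the 4 lowest and 4 highest genes past 2-fold were named, with Smad2, Smad3, Smad4, Smad7, Thbs1, Furin and Eng, and Cd82 as the target. A further gene that the rule names is not reported here. The marker genes given, Itgb1, Itgb3, Itgb5, Itgb6, Itgb8 and Ddx3y were named outside this rule. Members and lists were chosen with earlier results of these data known. Alternatives were 2 other pseudocounts, 4 scalings, 2 other filters, the highest row of a repeated symbol, and removal of a lowess trend (fraction 0.3) on transcript length. The tools were biopython 1.88, matplotlib 3.10.9, statsmodels 0.14.6, scipy 1.17.1, pandas 2.3.3 and numpy 2.4.6 under Python 3.11.15.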

Additional observations from a re-analysis of the deposited data

How the results depend on the processing

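With a pseudocount of 1 RPKM the log2 ratios of Tgfb2, Tgfbr3 and Ltbp4 were -1.28, -0.83 and 1.97. With the median of the genes kept set to 0, that of Ltbp2 was -1.24. With the upper quartile made equal, it was -1.29 and the median of the members -0.76. With libraries scaled to the same RPKM sum, Tgfb2, Tgfbr3, Ltbp2 and Ltbp4 were at -2.18, -1.51, -1.65 and 1.74, and scaled to Gapdh at -2.19, -1.53, -1.66 and 1.72. Under these 2 scalings 5 members were more than 2-fold lower, and the median of the members was -1.10 and -1.12. The pathway lists together had 44 and 45 genes past 2-fold on the low side and 0 on the high side. Of all genes 18.0% and 18.4% lay past 2-fold on the low side. These shifts follow from the scaling, which moved the median of all genes to -0.39 and -0.41. Without a filter on mean RPKM the median of the members was -0.39. Then 4 pathway genes were more than 2-fold higher, beside 5.96% of all 20211 symbols. With a mean RPKM of at least 5, 7 members were left, with a median of -0.15 beside 0.13 over the 6518 genes kept. More than 2-fold lower was 1 of the 7, beside 5.37% of those genes. Tgfb2 and Tgfbr3, with means of 2.99 and 3.62 RPKM, were removed by this filter and their ratios did not change. With the trend on transcript length removed, Ltbp2 was at -1.05. Of 80 recomputed log2 ratios of members, 45 moved by less than the distance from the middle to an end of their counting interval. The other 35 moved further, and the 4 members past 2-fold kept their sign. The row with the highest mean RPKM had to give the same value for each member, since each stood on a single row. These unchanged values are among the 45. No paired analysis was possible because a genotype is a single library here. Depth limits Tgfbr1 most, with 92 and 122 estimated reads, and the spread between cultures is unknown.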

Other observations

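Ltbp4 takes part in elastic fibre assembly with fibulins, so the levels of its partner genes were looked up after its ratio had been seen. Elastin itself (Eln) was at 6.81 RPKM in WT and 0.867 in Kai1 KO, a log2 ratio of -2.84 with a counting interval from -3.40 to -2.57. Fbln5, the gene of fibulin-5, which LTBP4 binds, was at 29.0 and 43.4 (0.58). Efemp2, the gene of fibulin-4, was at 256 and 217 (-0.24), and fibrillin-1 (Fbn1), which anchors LTBPs in microfibrils, at 41.1 and 36.7 (-0.16). Ltbp4 and elastin thus lay on opposite sides of their WT level, at 476% and 12.7% of it, in the same pair of libraries.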
